A study of Mus musculus
Rattus norvegicus and Mus musculus and Rattus norvegicus with 95 samples.

Results

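Hand1 and Tfap2c are 2 of the 13926 homologous genes listed in each of the deposited tables, and both were followed by their rows, under the mouse symbols Hand1 (homologue number 3545) and Tfap2c (homologue number 2423). Mouse-rat allodiploid embryonic stem cells (AdESCs) carry genetic material of both species in 1 cell. The bulk table held 8 libraries of cells labelled G0/G1, each from 1 line: the AdESC lines RM1-1 and RM2-1, the AdESC lines MR1-1 and MR2-1, the rat ESC lines DA25 and DA53, and the mouse ESC lines F145 and F146. The labels do not say what the letters RM and MR stand for. The single-cell table held 87 cells in 11 samples. Of these, 63 cells were differentiated: embryoid body (EB) cells of MR2-1 and of RM1-1, fibroblasts from a mouse chimaera made with MR1-1, neurons from a mouse chimaera made with RM1-1, lung cells from a rat chimaera made with RM2-1, and testis cells labelled somatic, from mouse (RM1-1) and rat (RM2-1) chimaeras. The other 24 were AdESCs of the same 4 lines. Each AdESC line and each chimaera-derived sample stands for 1 line, no label ties libraries to separate cultures or gives the age of an animal, and all values are FPKM, which the authors computed per gene.

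Hand1 is a basic helix-loop-helix transcription factor that mouse embryos need for the differentiation of trophoblast giant cells and for the heart and the vessels of the yolk sac. It binds DNA with E proteins as partners, and Id proteins can take those partners away. Tfap2c encodes AP-2 gamma, a transcription factor of the trophectoderm and placenta that is also used by primordial germ cells and by several epithelia, and pluripotent stem cells are known to express it. Cdx2, Eomes, Elf5 and Gata3 are further trophoblast regulators.

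In GENCODE M21 on GRCm38, the assembly also called mm10, Hand1 (ENSMUSG00000037335.13) lies on the minus strand at chr11:57828705-57832818 and its coding transcript Hand1-201 has 2 exons and 648 coding bases. Tfap2c (ENSMUSG00000028640.11) lies on the plus strand at chr2:172549593-172558622, and Tfap2c-201 has 7 exons and 1347 coding bases. Both genes have near relatives, so the coding stretches most alike are shown first, because short reads from such a stretch are the hardest to assign. In the most similar in-frame window of 90 coding bases, Hand1 and Hand2 were identical at 84 positions (93.3%), and their longest identical run of coding sequence was 17 bases. Tfap2c and Tfap2a were identical at 77 of 90 positions (85.6%) in their most similar window. Over their whole coding sequences the longest identical run was also 17 bases, and it is not in that window. Tfap2c and Tfap2e matched at 77 of 90 positions as well, in another window. Their longest identical run over the whole coding sequences was 22 bases, again not in the window shown. Capitals mark the bases that differ within each pair.
Hand1, coding bases 346 to 435, chr11:57831352-57831441, minus strand: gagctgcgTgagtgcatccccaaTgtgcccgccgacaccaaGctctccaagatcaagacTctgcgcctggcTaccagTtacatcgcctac
Hand2, coding bases 361 to 450, chr8:57322267-57322356, plus strand: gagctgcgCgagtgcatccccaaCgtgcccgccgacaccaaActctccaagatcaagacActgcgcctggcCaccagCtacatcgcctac
Tfap2c beside Tfap2a, coding bases 844 to 933, across an exon junction on chromosome 2: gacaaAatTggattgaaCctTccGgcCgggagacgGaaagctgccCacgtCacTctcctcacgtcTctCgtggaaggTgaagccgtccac
Tfap2a, coding bases 895 to 984, across an exon junction on chromosome 13: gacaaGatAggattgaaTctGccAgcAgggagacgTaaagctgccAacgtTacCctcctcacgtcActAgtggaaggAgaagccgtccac
Tfap2c beside Tfap2e, coding bases 733 to 822, across an exon junction on chromosome 2: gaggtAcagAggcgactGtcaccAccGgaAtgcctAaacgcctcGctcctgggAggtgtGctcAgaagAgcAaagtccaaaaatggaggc
Tfap2e, coding bases 718 to 807, across an exon junction on chromosome 4: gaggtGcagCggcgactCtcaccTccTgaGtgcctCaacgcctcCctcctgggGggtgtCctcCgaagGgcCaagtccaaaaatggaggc
The Hand1 stretch lies within 1 exon. How the authors treated reads that fit more than 1 gene, or both species, is not given in the sources used here. How mouse and rat values were joined in an AdESC library is not given either, so an AdESC level cannot be split by species.

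In bulk, 7835 to 8770 genes reached 1 FPKM, and the summed FPKM lay between 312695 and 377664. All 6 stem cell markers that the tables list reached 1 FPKM in every bulk library and in every AdESC single-cell sample, against 1 or 2 of the 6 in the differentiated samples. The differentiated labels were met unevenly. The neurons had 12 of 13 neuron markers at 1 FPKM or more. The lung cells had 1 of 10 lung epithelial markers, with Scgb1a1, Sftpa1, Sftpc and Sftpd listed at 0, and 10 of 14 markers of testis somatic cells. The RM1-1 testis cells had 4 of those 14 markers and 8 of 13 neuron markers, and Amh, Fshr and Cyp17a1 were listed at 0 in both testis samples. The fibroblast sample had 17 of 20 fibroblast markers, where the differentiated samples ranged from 6 to 20. That count is of sample means, and its 10 cells were uneven. Col1a1 reached 1 FPKM in 1 of its 4 cells with Tfap2c and 4 of the other 6. The epithelial gene Cldn6 did so in 4 and 5, and Thy1 in 0 and 1. The label is therefore used here only as a name.

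Hand1 was low in the RM lines and several FPKM higher in the MR lines. It measured 0.238 FPKM in RM1-1 and 0.26 FPKM in RM2-1, against 5.468 FPKM in MR1-1 and 5.475 FPKM in MR2-1. The 2 MR values lay almost on each other. The RM and MR values did not overlap, but the share of all genes without overlap was not counted. The lack of overlap is therefore not read as a result about Hand1. The mean FPKM was 22.0 times lower in RM lines than in MR lines. Among all genes of its library, Hand1 stood above 27.4% of genes in RM1-1 and 29.1% in RM2-1, and above 58.8% in MR1-1 and 55.6% in MR2-1.

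**Figure D1:**
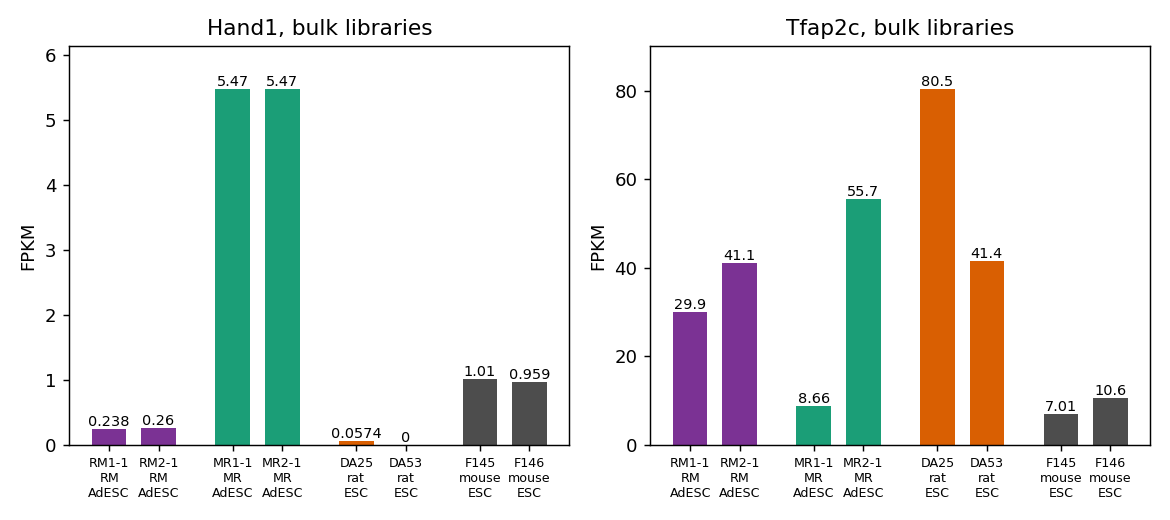
FPKM of Hand1 (left) and Tfap2c (right) in the 8 bulk libraries, 1 bar per line, coloured by kind of line, with the value printed on each bar. Hand1 stands at 5.468 and 5.475 FPKM in the MR lines and at or below 1.01 FPKM in the other 6 libraries, whereas Tfap2c runs from 7.01 FPKM in F145 to 80.5 FPKM in DA25.

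On the log2(FPKM + 1) scale, the difference of RM minus MR lines for Hand1 was -2.37 ± 0.38 (SE, 95% interval -3.23 to -1.52, n = 2 lines each), from a limma fit to all 8 libraries. The unadjusted p was 0.000121, the smallest of the 8794 genes tested, and the Benjamini-Hochberg adjusted p of limma was 1, so the gene was not called. Hand1 passed the filter of a mean of 1 FPKM, here and in the bulk comparisons below, only through the MR lines, where it is high. No gene was called between RM and MR lines (0% of 8794), and 51 genes had an unadjusted p under 0.05 in limma, 39 of them lower in RM lines. Only Egr1 (3.91, unadjusted p = 0.104 in limma) and Fos (2.41, unadjusted p = 0.0386), immediate early genes picked out here after their values were seen, had a larger absolute difference than Hand1. With a pseudocount of 0.1 in place of 1, the Hand1 difference became -4.00 with an adjusted p of 1. It lay between -2.39 and -2.36 when any 1 of the 8 libraries was left out.

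Both parents were nearer the RM level than the MR level. Hand1 was 0.0574 FPKM in DA25 and listed at 0 in DA53, and it was 1.01 FPKM in F145 and 0.959 FPKM in F146. In the order of levels, MR2-1 and MR1-1 came first, then F145 and F146, then RM2-1 and RM1-1, then DA25 and DA53. The 2 lines of each kind stood next to each other in that order, closer to one another than to any other kind. Set against the mean of the mouse and the rat mean, 0.507 FPKM, Hand1 was 0.469 and 0.512 times that level in the RM lines and 10.8 times in each MR line.

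Over all 4 AdESC lines Hand1 averaged 2.86 ± 3.02 FPKM in AdESCs and 0.986 ± 0.0384 FPKM in mouse ESCs (SD, n = 4 and 2), a log2 difference of 0.52 ± 0.71 (SE) with a limma adjusted p of 0.74. Leaving out 1 library gave 0.12 (either MR line) to 0.92 (without RM1-1). AdESCs differed from rat ESCs by 1.47 ± 0.71 on that scale, with an adjusted p of 0.223. Rat ESCs differed from mouse ESCs by -0.95 ± 0.82, with an adjusted p of 0.421. AdESCs against mouse ESCs called 3.89% of the 8794 genes (2.71% higher), AdESCs against rat ESCs 9.7% (5.79% higher and 3.91% lower), and rat against mouse ESCs 26.6%. Estimating the spread with RM and MR lines as separate groups left the AdESC-rat difference at 1.47 and brought its adjusted p to 0.0291.

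The lines were then taken apart, a step added after the values were seen. In MR lines Hand1 was 2.65 ± 0.38 (SE) higher than in rat ESCs on the log2 scale, with a limma adjusted p of 0.00423 against a background of 3.75% of genes called. Hand1 entered this test only through the MR lines themselves, since every other library was at or below 1.01 FPKM. The call was lost without DA53 (2.61, adjusted p = 0.0748) or without DA25 (2.69, adjusted p = 0.0579), and with a pseudocount of 0.1 the difference was 5.47. Fibroblast markers moved with this comparison: 14 and 16 of 20 reached 1 FPKM in MR lines and 3 and 4 in rat ESCs, with sums of 567 to 754 FPKM and 369 to 694 FPKM, and their part was not tested. MR lines minus mouse ESCs gave 1.70 ± 0.38, a ratio of mean FPKM of 5.55, with an adjusted p of 0.0864 where 0.751% of genes were called; without the filter on low values the adjusted p was 0.0421. For RM lines the differences were -0.67 ± 0.38 from mouse ESCs (adjusted p = 0.516) and 0.28 ± 0.38 from rat ESCs (adjusted p = 0.731), where 0.625% and 4.47% of genes were called. Comparisons that share a parent or an AdESC group share its libraries, so they do not stand as separate evidence.

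**Figure D2:**
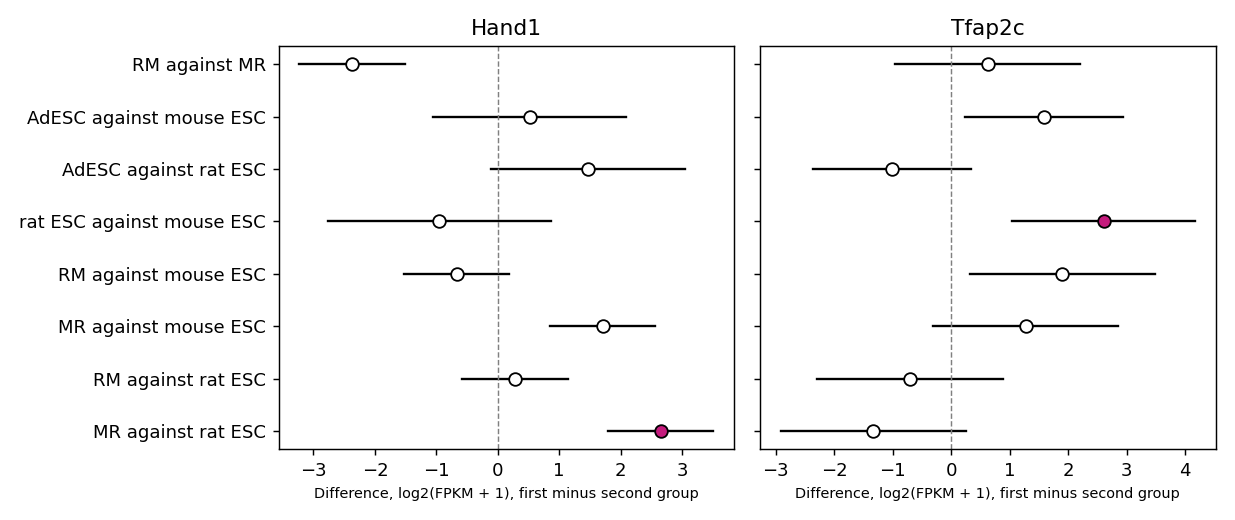
Differences in log2(FPKM + 1) of the first minus the second group for Hand1 (left) and Tfap2c (right), with 95% intervals from limma fits to the 8 bulk libraries; filled points have an adjusted p under 0.05 over all genes tested. Filled points are MR lines against rat ESCs for Hand1 (2.65) and rat against mouse ESCs for Tfap2c (2.61), and the lower 4 rows were added after the values were seen.

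Hand1 stood apart from its relative Hand2, a bHLH factor of heart and limb. Hand2 was 0.0623 and 0.11 FPKM in the RM lines and 0 and 0.0404 FPKM in the MR lines, and at most 0.496 FPKM in any bulk library. The 2 libraries with the highest Hand1 were thus among those with the lowest Hand2. So were DA25 and DA53, where Hand1 was lowest and Hand2 was listed at 0, while F145 and F146 had the most Hand2 (0.265 and 0.496 FPKM). Hand2 did not pass the filter of a mean of 1 FPKM and was not tested.

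Signs of other cells were set beside the Hand1 difference. Of 20 fibroblast markers, which would also mark feeder cells, 16 and 17 reached 1 FPKM in the RM lines and 14 and 16 in the MR lines, and their summed level was 716 to 790 FPKM in RM lines and 567 to 754 FPKM in MR lines. Col1a1, the main fibrillar collagen of fibroblasts, was 54.5 and 84.3 FPKM in RM1-1 and RM2-1, and 8.69 and 55.1 FPKM in MR1-1 and MR2-1. In F145 and F146 Col1a1 was 641 and 89.7 FPKM, and in DA25 and DA53 it was 0.072 and 0.044 FPKM. Of 9 visceral endoderm markers, at most 1 reached 1 FPKM in an RM line and at most 2 in an MR line. The part of other cells in the result was not tested. In bulk libraries, fewer cells with Hand1 transcripts and less RNA per cell cannot be told apart.

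The trophoblast and mesoderm genes listed with Hand1 were described by counts. Between RM and MR lines none of the tested members of any list was called, against 0% of all genes. Their median differences, RM minus MR, were -0.22 over 19 trophoblast regulators, -0.35 over 15 trophoblast effectors, -0.20 over 10 cardiac and lateral mesoderm genes and -0.05 over 11 HAND partners, beside -0.06 over all genes. The summed level of 23 trophoblast effectors was 463 to 525.7 FPKM in RM lines and 657 to 864 FPKM in MR lines, with 13 to 14 and 13 to 15 members at 1 FPKM or more. The sums of 26 trophoblast regulators overlapped, at 287 to 317 FPKM in RM lines and 246 to 392 FPKM in MR lines. Cdx2, the trophectoderm factor, was 8.05 and 3.02 FPKM in RM1-1 and RM2-1 and 3.15 and 12.2 FPKM in MR1-1 and MR2-1, so its values overlapped (difference -0.29 ± 0.87, adjusted p = 1). Gata3 was at most 1.86 FPKM and Elf5 at most 0.301 FPKM in any bulk library. Eomes, though among the genes to be named, entered no fit, and its level is not given here. Members with an unadjusted p under 0.05 in limma, named after their values were seen, included Msx1, a homeobox gene of BMP-responsive tissues (-2.17), the simple-epithelial keratin Krt19 (-1.57) and Wnt7b (-1.85), each with an adjusted p of 1.

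Hand1 was listed at 0 in all 87 single cells. Per sample, the exact 95% upper limit on the share of cells with a value of 1 FPKM or more runs from 16.8% in the 20 RM2-1 testis cells to 60.2% in samples of 4 cells, which covers the sampling of cells only. The zeros included MR1-1 and MR2-1 cells, whose bulk libraries held 5.468 and 5.475 FPKM. To see how common that is, the 641 genes within 1.5 times of the MR mean of Hand1 in both MR bulk libraries (3.65 to 8.21 FPKM) were looked up in the same 14 cells. The median such gene was above 0 in 10 of the 14 cells, and 4 of the 641 (0.624%) were listed at 0 in every one: Hand1, Lrfn4, Pdgfb and Lox. The other 3 were above 0 in 27, 5 and 30 of the 87 cells, so Hand1 was the only one of the 641 listed at 0 throughout. Of 6151 genes at or above 3.65 FPKM in both MR bulk libraries, 2 were listed at 0 in all 87 cells, Hand1 and the ion channel gene Hcn2. Over all 13926 genes, whatever their bulk level, 1772 (12.7%) were listed at 0 in all 87 cells.

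**Figure D3:**
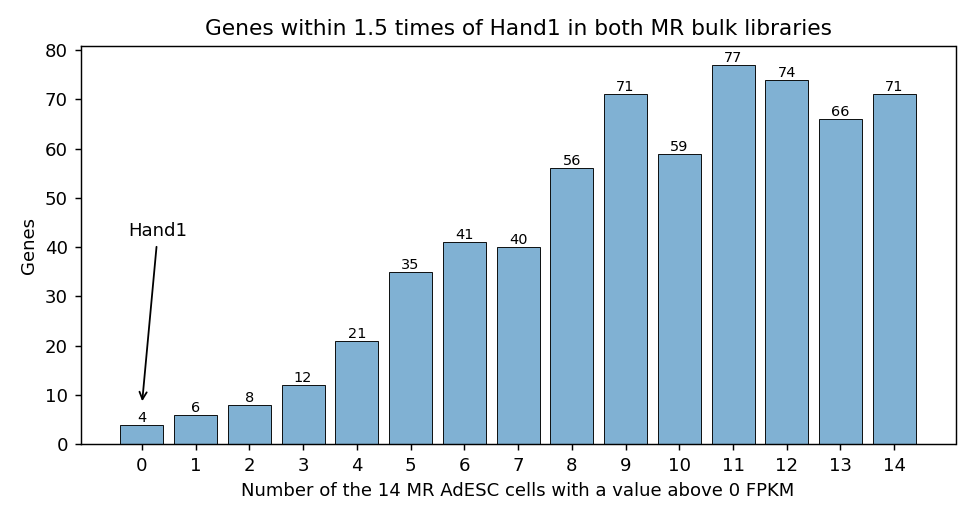
Number of MR AdESC single cells, of 14, with a value above 0 FPKM (horizontal axis) and number of genes (vertical axis), for the 641 genes whose FPKM lies within 1.5 times of Hand1 in both MR bulk libraries. Hand1 is 1 of the 4 genes in the column at 0, and 71 genes were above 0 in all 14 cells.

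The tables do not part a gene that the single-cell processing could not list from one with no transcripts in these cells, so the single cells give no difference between groups for Hand1. Hand2 was above 0 in 5 of the 87 cells. It reached 1 FPKM in 1 AdESC, with 1.28 FPKM, and in 2 differentiated cells, 1 of which was an MR2-1 EB cell with 5.08 FPKM.

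Tfap2c was above Hand1 in every bulk library, least so in MR1-1, and followed another order. In RM lines it measured 29.9 FPKM in RM1-1 and 41.1 FPKM in RM2-1. In MR lines it measured 8.66 FPKM in MR1-1 and 55.7 FPKM in MR2-1. The 2 MR lines enclosed both RM lines, so the groups overlapped, and MR1-1 was the only AdESC line at the mouse level. The log2 difference of RM minus MR lines was 0.63 ± 0.71 (SE, 95% interval -0.96 to 2.21, n = 2 lines each), with a limma adjusted p of 1. That difference rested on MR1-1: without it the value was -0.65, and without MR2-1 it was 1.90, with adjusted p of 1 and 0.988 in limma.

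The parents differed. Rat ESCs held 80.5 FPKM in DA25 and 41.4 FPKM in DA53, against 7.01 FPKM in F145 and 10.6 FPKM in F146 of the mouse ESCs. The ratio of mean FPKM was 6.91. Both rat values lay above both mouse values, but how many of all genes part in this way was not counted, so that is not read as a result. The log2 difference of rat minus mouse ESCs was 2.61 ± 0.70 (SE, 95% interval 1.05 to 4.17), with a limma adjusted p of 0.0212, in a comparison that called 26.6% of all genes. The call was lost without F145 (2.34, adjusted p = 0.106), without F146 (2.88, adjusted p = 0.052) and without DA25 (2.14, adjusted p = 0.138). Values of the 2 species come from different gene models and builds, and fibroblast markers moved with them: 3 and 4 of 20 reached 1 FPKM in the rat lines and 17 and 19 in the mouse lines, with sums of 369 to 694 and 734 to 4106 FPKM. Their part in the result was not tested.

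The mean of the AdESC lines lay between the parental means, with neither difference called, while MR2-1 was above DA53 and MR1-1 below F146. Tfap2c averaged 33.8 ± 19.8 FPKM in the 4 AdESC lines, 61.0 ± 27.6 FPKM in rat ESCs and 8.82 ± 2.56 FPKM in mouse ESCs (SD). The AdESC lines were at 0.857, 1.18, 0.248 and 1.59 times the mean of the parental means in RM1-1, RM2-1, MR1-1 and MR2-1. The log2 difference was 1.59 ± 0.61 (SE) from mouse ESCs, with an adjusted p of 0.186, and -1.02 ± 0.61 from rat ESCs, with an adjusted p of 0.322. Leaving out MR1-1 brought the difference from mouse ESCs to 2.12 with an adjusted p of 0.022. Taken apart after the values were seen, RM lines differed from mouse ESCs by 1.90 (adjusted p = 0.296) and MR lines by 1.28 (adjusted p = 0.513; 2.55 without MR1-1 and 0.00 without MR2-1). From rat ESCs the RM lines differed by -0.70 (adjusted p = 0.624) and the MR lines by -1.33 (adjusted p = 0.393; -0.05 without MR1-1, and -2.61 with an adjusted p of 0.0398 without MR2-1). In the order of levels DA25 came first, followed by MR2-1, DA53, RM2-1, RM1-1, F146, MR1-1 and F145, and the neighbours DA53 and RM2-1 differed by less than the spread between lines of 1 kind.

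Its relatives were lower. Tfap2a, which encodes AP-2 alpha, was 1.77 and 0.764 FPKM in the RM lines, 1.44 and 4.92 FPKM in the MR lines, 1.46 and 9.23 FPKM in DA25 and DA53, and 1.79 and 2.28 FPKM in F145 and F146. It passed the test in none of the 4 comparisons of the bulk design. Tfap2b, encoding AP-2 beta, was at most 0.0171 FPKM and Tfap2e at most 1.61 FPKM in any bulk library. In the rat and RM pairs the line with more Tfap2a, DA53 and RM1-1, had less Tfap2c. In the MR and mouse pairs the line with more Tfap2a, MR2-1 and F146, also had more Tfap2c.

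Other trophoblast regulators were uneven between the species. Of 19 tested, 6 were higher and 1 lower in rat than in mouse ESCs (5 and 2 of 20 after scaling to the upper quartile), beside 26.6% of all genes called, with a median of 0.58 against 0.08 over all genes. Cdx2 was 10.7 and 82.1 FPKM in DA25 and DA53 and 0.0812 and 0 FPKM in F145 and F146 (log2 difference 4.91 ± 0.84, adjusted p = 0.00227). Satb1, a chromatin organiser, was also higher in rat ESCs (3.42), and the nuclear receptor gene Nr0b1 was lower (-5.34). Of 15 trophoblast effectors 4 were higher, among them Krt19 (3.28), the connexin gene Gjb5 (3.28) and the integrin gene Itga7 (2.83), and 1 was lower; scaling to the upper quartile gave 4 and 2. Of 12 AP-2 family members and cofactors 1 was higher and 1 lower (1 and 2 after that scaling), and of 13 epithelial genes linked to AP-2 factors 3 were higher, with Epcam first (2.53), and 2 lower.

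Against mouse ESCs, AdESCs had 2 of 15 trophoblast effectors higher, Itga7 (2.09) and the glucose transporter gene Slc2a1 (1.499), and none of 19 trophoblast regulators called, beside 3.89% of all genes. Of 13 epithelial genes Epcam (2.68) and Cldn6 (2.52) were higher, and of 9 germline genes Lin28a (2.34) and Ddx4 (2.18). Cdx2 differed by 2.68 ± 0.72 from mouse ESCs (adjusted p = 0.0715) and by -2.23 ± 0.72 from rat ESCs (adjusted p = 0.0852). Against rat ESCs, 1 of 19 trophoblast regulators was higher, Nr0b1 (3.93), and 1 was lower, Tfeb (-1.45), whose call was lost after scaling to the upper quartile (-1.11, adjusted p = 0.0754), where 3 of 20 were higher and none lower. The background there was 9.7%.

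In single cells Tfap2c was seen in most AdESCs and in few differentiated cells. It reached 1 FPKM in 4 of 63 differentiated cells, 3 of them in the fibroblast sample and 1 in RM1-1 EB cells, and in 20 of 24 AdESCs. By line these were 4 of 4 AdESCs of RM1-1, 5 of 6 of RM2-1, 5 of 6 of MR1-1 and 6 of 8 of MR2-1. It was listed at 0 in all 36 neurons, lung cells and testis cells, with exact 95% upper limits per sample of 16.8% (20 RM2-1 testis cells) to 60.2% (4 cells). The median number of genes at 1 FPKM or more per cell ran from 4262.5 to 5302.5 over the differentiated samples and from 4826 to 5537 over the AdESC samples. Cells of 1 sample share a line and a preparation, so samples, not cells, were compared.

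Among differentiated samples, mean Tfap2c was 1.83 FPKM in the fibroblast sample, 0.66 FPKM in RM1-1 EB cells, and 0 in MR2-1 EB cells, neurons, lung cells and both testis samples. In AdESCs the means were 15.0 FPKM in RM1-1, 15.6 FPKM in RM2-1, 17.1 FPKM in MR1-1 and 13.5 FPKM in MR2-1. The log2 difference of the 7 differentiated samples minus the 4 AdESC samples was -3.70 ± 0.46 (SE, 95% interval -4.68 to -2.72), with a limma adjusted p of 6.13e-05. Tfap2c passed the filter of a mean of 1 FPKM only through the AdESC samples, as the differentiated samples averaged 0.356 FPKM. The EB and testis comparisons below share this limit. In that comparison 15.9% of the 8421 genes tested were called, and 148 genes had a larger absolute difference. Of those genes 8.57% were called lower and 7.37% higher. Leaving out any 1 sample, the doubtful lung and testis samples included, gave differences of -3.90 to -3.65. No fold is given where a group is listed at 0.

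EB cells taken alone gave the same direction. The difference from AdESCs was -3.65 ± 0.50 (limma adjusted p = 0.00549, 5.55% of genes called). Within a line, Tfap2c was 0 FPKM in EB cells and 13.5 FPKM in AdESCs of MR2-1, and 0.66 FPKM in EB cells and 15.0 FPKM in AdESCs of RM1-1. The RM1-1 mean came from 1 of 5 EB cells, with 3.30 FPKM and a vimentin (Vim) level of 1063 FPKM. The 2 testis samples differed from AdESCs by -4.02 ± 0.50 (adjusted p = 0.00239, 11.1% of genes called).

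**Figure D4:**
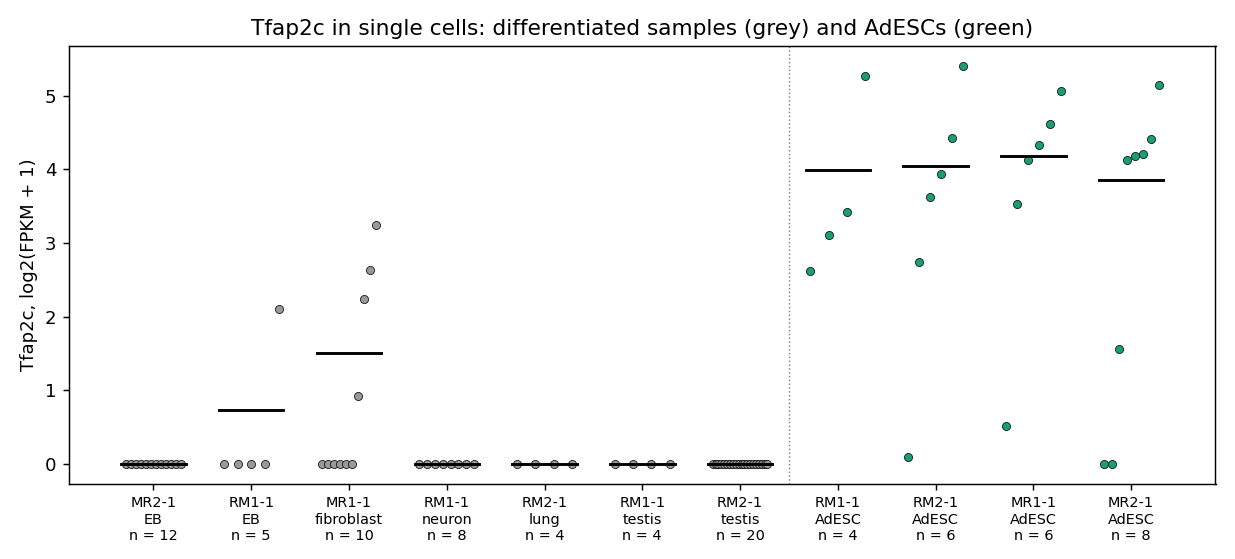
Tfap2c in log2(FPKM + 1) in every single cell, with differentiated samples on the left (grey) and AdESC samples on the right (green); horizontal lines mark log2 of the mean FPKM of a sample plus 1. Of 63 differentiated cells 4 reach 1 FPKM, against 20 of 24 AdESCs.

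The RM and MR samples of single AdESCs did not part. Their mean levels were 15.0 and 15.6 FPKM for RM1-1 and RM2-1, and 17.1 and 13.5 FPKM for MR1-1 and MR2-1, a log2 difference of 0.01 ± 0.63 (SE, 95% interval -1.45 to 1.46) with a limma adjusted p of 1. No gene was called there (0% of 8421), while 193 had an unadjusted p under 0.05. The interval spans more than 1 log2 unit on both sides, so a difference of that size is not shown to be absent. Tfap2c reached 1 FPKM in 9 of 10 RM cells and in 11 of 14 MR cells.

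MR1-1 was low in bulk and not in single cells. Its cells averaged 17.1 FPKM against 8.66 FPKM in its bulk library, a ratio of 1.97, whereas the ratio was 0.501 in RM1-1, 0.378 in RM2-1 and 0.242 in MR2-1. Over all genes at 1 FPKM or more in bulk, the median ratio was between 0.574 and 0.695. In MR1-1, 87.5% of those genes had a lower ratio than Tfap2c. The 2 tables were processed as separate sets, so this is a description of ratios and not a test.

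Cell to cell, Tfap2c varied within every AdESC sample. It ran from 5.13 to 37.5 FPKM over the 4 RM1-1 cells and from 0.0649 to 41.5 FPKM over the 6 RM2-1 cells. In MR lines the range was 0.428 to 32.4 FPKM over the 6 MR1-1 cells and 0 to 34.4 FPKM over the 8 MR2-1 cells. The 4 AdESCs under 1 FPKM comprised 2 MR2-1 cells listed at 0, 1 MR1-1 cell and 1 RM2-1 cell. They held 4864 to 5178 genes at 1 FPKM or more, against 4211 to 6246 in the other 20, and their summed stem cell markers were 178 to 909 FPKM, against 438 to 1759 FPKM. Their numbers of genes lay within the range of the others, and Pou5f1, the pluripotency factor Oct4, was between 42.0 and 108 FPKM in each.

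The fibroblast sample was the only differentiated one with more than 1 cell above 0. Its 4 cells with Tfap2c held 0.888, 3.74, 5.20 and 8.50 FPKM. Those cells were high in 2 epithelial adhesion genes. Cdh1, which encodes E-cadherin, was 67.9 to 119 FPKM in them and 0.33 to 27.7 FPKM in the other 6. Epcam, an epithelial adhesion molecule, was 67.6 to 310 FPKM in the cells with Tfap2c and 0.393 to 52.0 FPKM in the others. For neither gene did the ranges overlap, but how many of all genes part these cells in this way was not counted. Other epithelial genes did not part the cells: the tight junction gene Cldn6 was 13.4 to 593 FPKM in the cells with Tfap2c and 0.619 to 234 FPKM in the others, and Krt19 had a median of 7.97 FPKM in the cells with Tfap2c and 25.8 FPKM in the others. Lum, which encodes the matrix proteoglycan lumican, stayed under 1 FPKM in the 4 cells with Tfap2c and reached 1 FPKM in 4 of the other 6, where it went up to 916 FPKM. Dcn reached 1 FPKM in 0 of the 4 and 3 of the other 6. Other fibroblast markers were less divided. Vim reached 1 FPKM in 3 of the 4 cells with Tfap2c and in 4 of the other 6. Col3a1 was 0.149 to 40.5 FPKM in the cells with Tfap2c and 0.0281 to 217 FPKM in the others. These genes were chosen after their values were seen and all 10 cells come from 1 sample, so no test was made.

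**Figure D5:**
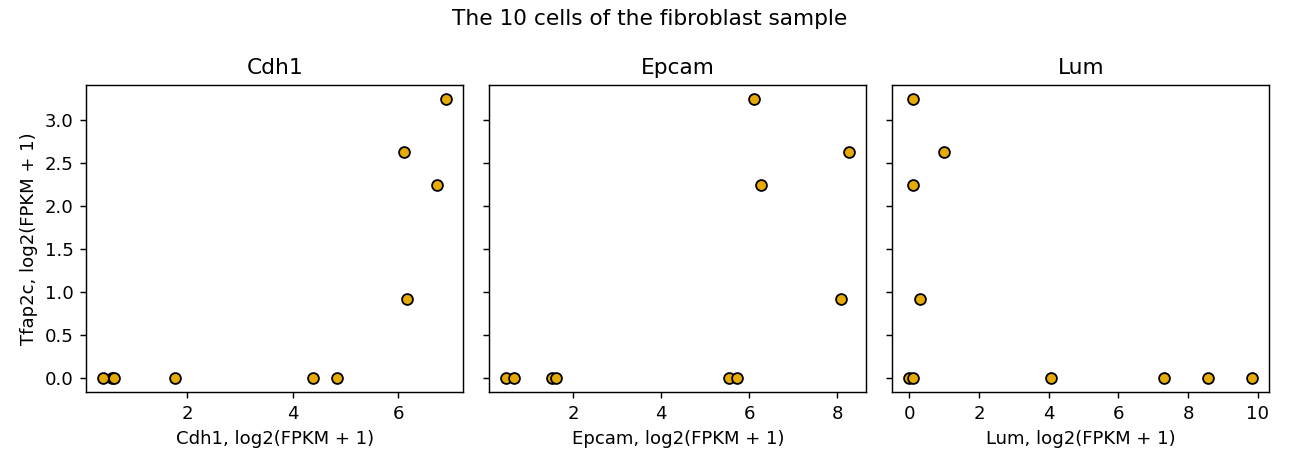
Tfap2c (vertical axis) against Cdh1, Epcam and Lum (horizontal axes), all in log2(FPKM + 1), in the 10 cells of the fibroblast sample, 1 point per cell. The 4 cells with Tfap2c lie at the right in Cdh1 and Epcam and at the left in Lum.

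Relatives appeared in the same cells. Among the 4 fibroblast-sample cells with Tfap2c, 3 held Tfap2a above 0, of which 1 reached 1 FPKM, at 18.4 FPKM. Of the same 4 cells 2 held Tfap2b, with 3.74 and 19.6 FPKM, while both genes were listed at 0 in the other 6. Gata3 reached 43.7 and 10.2 FPKM in the 2 cells with Tfap2b. A further cell with Tfap2c, at 3.74 FPKM, held 71.2 FPKM of Pou5f1. Cdx2 and Elf5 were listed at 0 in all 10 cells. In AdESCs Tfap2a was above 0 in 14 of 24 cells and reached 1 FPKM in 4 of 24, and Tfap2b was listed at 0 in all 24.

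Trophoblast regulators went both ways between differentiated cells and AdESCs. Of 21 trophoblast regulators 4 were lower and 3 higher, beside 15.9% of all genes called. The lower ones included Nr0b1 (-4.12) and Cdx2 (-2.88 ± 0.39, adjusted p = 0.000151), which was 5.68 to 7.20 FPKM in AdESC samples and listed at 0 in all 63 differentiated cells. Cdx2 thus entered the single-cell tests only through the AdESC samples. So did Fgf4 below, which was listed at 0 in every differentiated sample, and a higher call was not open to either. Nr0b1 was listed at 0 in every differentiated sample but the RM2-1 testis cells. The higher ones included the bHLH inhibitor gene Id2 (3.25) and the growth factor receptor gene Fgfr2 (2.79). Of 15 trophoblast effectors 3 were lower, among them Gjb5 (-4.51) and the growth factor gene Fgf4 (-4.33). Of 9 HAND partners and relatives 4 were higher, Id1 (5.43), the LIM-domain cofactor gene Fhl2 (4.03), Id2 (3.25) and the E protein gene Tcf4 (2.27), and their median was 2.01, beside 0.02 over all genes. Gata3 differed by 0.22 ± 0.71 (adjusted p = 0.856).

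The germline and AP-2 lists gave further context for Tfap2c. Of 8 germline genes 6 were lower in differentiated cells, beside 8.57% of all genes lower and 7.37% higher. The 6 included Nanog (-8.80), Dazl (-5.87), Pou5f1 (-5.58) and Ddx4 (-4.06). Of the 11 listed germline genes, 0 to 3 reached 1 FPKM in differentiated samples and 9 to 10 in AdESC samples. Their sums were 0.838 to 64.9 FPKM and 640 to 1032 FPKM. Such genes passed the filter largely through the AdESC samples, which left little room for a higher call, so the count is no evidence on Tfap2c. The lists share members: Nanog and Pou5f1 are also among the stem cell markers, as is Fgf4 of the trophoblast effectors. Their counts are therefore not separate evidence. Of 11 AP-2 relatives and cofactors 2 were lower, the nucleolar gene Npm1 (-1.34) and the chromatin gene Dek (-1.23), and none was higher. Of 11 epithelial genes 3 were lower, with Epcam (-4.42) and Cdh1 (-3.06) first, and Cdh1 lost its call after scaling to the upper quartile (-2.97, adjusted p = 0.0516). Fibroblast markers moved with the same comparison: 7 of 19 were higher and none lower (6 of 19 after that scaling), and summed levels were 982 to 3780 FPKM in differentiated samples and 110 to 144 FPKM in AdESC samples. Their part in the result was not tested.

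EB and testis samples shared part of this. In EB cells 3 of 21 trophoblast regulators were lower than in AdESCs, Nr0b1 (-4.20), Cdx2 (-2.88) and Grhl3, an epithelial transcription factor gene (-2.69), and none was higher (1 of 21 after scaling to the upper quartile), beside 3.1% of all genes lower and 2.45% higher. Of 15 trophoblast effectors 3 were lower in EB cells, among them Fgf4 (-4.33) and Gjb5 (-4.06), of which Gjb5 lost its call after scaling to the upper quartile (-3.96, adjusted p = 0.0533). Of 14 cardiac and lateral mesoderm genes, the tissues in which Hand1 also acts, 3 were higher in EB cells, the endoderm and heart factor gene Gata6 (4.27), the cardiac troponin gene Tnnt2 (3.53) and Bmp2 (2.23), and 1 was lower, Tbx3 (-3.69). Hand1 was listed at 0 in the same 17 EB cells. In testis samples 4 of 21 trophoblast regulators were higher and 3 lower, beside 5.77% of all genes higher and 5.37% lower, and 5 of 15 effectors were lower. Both comparisons share the 4 AdESC samples, and Cdx2 and Fgf4 entered both only through them. Tfap2e, the gene of AP-2 epsilon, was above 0 in 5 of the 12 MR2-1 EB cells, up to 54.5 FPKM, while Tfap2c was listed at 0 in all 12.

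The genes most like Tfap2c were found over the 8 bulk libraries and the 11 single-cell sample means, by the lower of the 2 Pearson correlations of log2(FPKM + 1). They were Fgd1, a guanine nucleotide exchange factor gene (lower r = 0.93), Gm9 (0.89), Cuzd1 (0.87), the aminopeptidase gene Npepps (0.87) and the acyl-CoA thioesterase gene Acot5 (0.86). Fgd1 was 37.6 and 32.2 FPKM in DA25 and DA53, 18.5 FPKM in MR1-1, and 15.0 and 15.8 FPKM in F145 and F146. These samples share species and cell state, so the values describe a likeness only. The rule gave no gene for Hand1, which has no variation in single cells. Over the 8 bulk libraries alone, a choice made after the values were seen, the genes most like Hand1 included Gna11 (r = 0.89), Nfatc2 (0.84), Cmklr1 (0.84) and Tcf7l2 (0.83).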

How the data were processed

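The authors deposited 1 FPKM value per gene in 2 tables, for 8 bulk libraries and 87 single cells. The builds mm10 and rn5 are listed in the submitters' processing notes, as are Cufflinks 2.1.1, TopHat2 2.0.10 and FastQC 0.10.1; per the labels, RNA was extracted with Trizol and libraries were made with a TruSeq kit. FPKM is per length and library, so levels of different genes can be set side by side, but read counts are not given and no counting interval was set on a level. Cells were averaged per line and type, giving 11 samples. Differences were fitted with limma 3.58.1 (trend) in R 4.3.3 on log2(FPKM + 1), for genes whose mean in the fitted samples reached 1 FPKM, with Benjamini-Hochberg adjustment over all of them and a threshold of 0.05, and the script was tested on simulated data. Shares of cells carry exact Clopper-Pearson intervals. P-values measure the spread between these samples, which may be technical. Members and lists were chosen with earlier results of these data known. Named list genes are the called ones with the largest differences, at most 4 per list and comparison, plus Hand2, Tfap2a, Tfap2b, Cdx2, Eomes, Elf5 and Gata3; a few genes that the rules select are not reported here. Sequences are from GENCODE M21 transcripts.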

Additional observations from a re-analysis of the deposited data

How the results depend on the processing

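Alternatives were a pseudocount of 0.1, no filter, scaling to the upper quartile, mean log values over cells, other groupings and leaving out each library or sample. Hand1 kept its sign in every comparison and alternative. Its adjusted p between RM and MR lines ranged from 0.126 (no filter) to 1, and its difference from rat ESCs passed the threshold with RM and MR as separate groups (1.47, adjusted p = 0.0291). For Tfap2c the difference between RM and MR lines ran from -0.65 to 1.90 in bulk with 1 library left out, negative only without MR1-1. In single-cell samples it was -0.19 after scaling to the upper quartile and ran from -0.15 (without MR2-1) to 0.17 with 1 sample left out, with -0.02 without RM2-1. AdESCs minus mouse ESCs gave 1.27 to 2.12 and rat minus mouse ESCs 2.14 to 3.08 with 1 library left out; the difference of rat and mouse ESCs lost its call without the filter (2.61, adjusted p = 0.0539). Tfap2c stayed below AdESCs in differentiated, EB and testis samples, past the threshold, under all 15 alternatives each (adjusted p at most 0.0237). Counts of called genes with 1 library or sample left out were 151 to 344 for AdESCs against mouse ESCs, 223 to 1063 against rat ESCs, 1059 to 2435 for rat against mouse ESCs, 791 to 1367 for differentiated cells, 222 to 676 for EB cells and 517 to 1133 for testis cells. RM and MR as separate groups gave 156 genes against mouse ESCs, and no filter gave 10 genes between RM and MR single-cell samples. The cause of these changes was not tested.

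With the line number as a replicate block, the RM and MR difference of Hand1 was -2.37 (adjusted p = 0.619) and that of Tfap2c 0.63 in bulk and 0.01 in single-cell samples. Same-numbered lines deviated together in bulk (r = 0.55) and not in single-cell samples (r = 0.0043), over 2 pairs. The main fits did not take the numbers as a pairing, and the single-cell value does not remove the shared deviation from bulk. In bulk, RM minus MR for line numbers 1 and 2 was -2.39 and -2.36 for Hand1. For Tfap2c it was 1.68 and -0.43. For AdESCs against rat ESCs the median over all genes was -0.11 as deposited (509 calls higher, 344 lower) and 0.20 after scaling to the upper quartile (752 higher, 165 lower); for rat against mouse ESCs it was 0.08 (1239 higher, 1104 lower) and -0.19 (886 higher, 1499 lower). After that scaling Tfap2c was 2.31 higher in rat ESCs than in mouse ESCs (adjusted p = 0.0394). The tables give no read counts, so the depth behind the low Hand1 values is unknown.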
